A study of Mus musculus with 8 samples.

Results

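The 10 genes described here encode proteins that coat lipid droplets or help to build them: the perilipins Plin1, Plin2, Plin3, Plin4 and Plin5, and Cidec, Bscl2, Fitm1, Fitm2 and Hilpda. They were taken by symbol, matched to their Ensembl identifiers and summed over their rows in each table, and all 10 were found among 55487 gene identifiers. RNA was sequenced from epididymal white fat, the visceral fat pad beside the epididymis, of 8 male C57BL/6 mice made obese on a high-fat diet (HFD). All 8 carried floxed Slc16a1 (Slc16a1 flox/flox), the gene of the lactate carrier MCT1. The 4 WT mice (numbers 2, 3, 4 and 5) had no Cre, and the 4 AKO mice (numbers 3, 8, 9 and 11) also carried AP2-Cre. The AP2 (Fabp4) promoter drives Cre in fat cells and is known to be active in some other cells, macrophages among them. No group had Cre without floxed Slc16a1, so effects of Cre and of the deletion cannot be told apart, and no age of the mice is given in the labels used here.

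A lipid droplet is a core of triglyceride and sterol ester wrapped in a phospholipid monolayer, and the proteins on that surface decide which enzymes reach the core. Droplets form in the membrane of the endoplasmic reticulum, where seipin (Bscl2) and the FIT proteins (Fitm1 and Fitm2) act, and are then coated by perilipins. A white fat cell holds 1 large droplet coated mainly by perilipin 1, whereas macrophages that take up lipid in obese fat hold many small droplets coated mainly by perilipin 2. By that background Plin1, Plin4 and Cidec are called adipocyte type here, and Plin2 and Hilpda macrophage type, although fat cells also express Plin2 and Hilpda.

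Values are TPM, transcript abundances per transcript length that sum to 1000000 in each library and keep no read depth. The precision of each value is therefore known only from the spread between mice, given as SD over 4 mice a group. Adipoq, a defining fat cell gene, was between 1864 and 5170.5 TPM, the summed brown fat markers between 21.5 and 42.0 TPM, and Ucp1 at most 0.83 TPM. The summed epididymis markers were 4.64 TPM in WT mouse 3 and 7.57 in WT mouse 4, each mostly from a single gene, and at most 0.55 TPM in the other 6 mice; their part in the values of those mice was not tested. Total Slc16a1 was 21.3 ± 5.78 TPM in WT and 24.0 ± 2.54 in AKO (limma FDR = 0.850, where FDR is the p adjusted by Benjamini-Hochberg over all genes tested), so the total does not check the labels. Its row 1 was between 10.8 and 17.7 TPM in WT and between 4.51 and 8.80 in AKO (limma FDR over all rows = 0.598). Its only other row, row 2, went the other way: it was at 12.5 and 14.4 TPM in WT mice 2 and 3, listed at 0 in WT mice 4 and 5, and between 13.6 and 22.5 TPM in AKO (limma FDR over all rows = 0.838). Neither row passed, so the rows do not check the labels either. In bulk tissue, fewer cells of a type and less RNA per cell cannot be told apart.

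The 10 genes together held between 0.630% and 0.773% of all TPM in the 8 mice. Cidec was the most abundant, with a mean of 3583 TPM over the 8 mice, and 99.8% of the 14172 tested genes had a lower mean. Plin2 (mean 1293 TPM), Plin4 (906 TPM) and Plin1 (884 TPM) followed, with means above those of 98.98% to 99.4% of the tested genes. Bscl2 averaged 295 TPM and Fitm2 81.6 TPM. Hilpda (38.0 TPM) and Plin3 (36.1 TPM) lay close together, Plin5 was at 14.7 TPM, and Fitm1 was at the floor with 0.411 TPM. Not every step in this order was shared by all mice. Cidec exceeded Plin2 in 8 of 8 mice, by 1.54 to 8.46 times. Plin2 exceeded Plin4 in 6 of 8 mice, Plin4 exceeded Plin1 in 4 of 8, and Hilpda exceeded Plin3 in 5 of 8, so these neighbours were not separated beyond the spread between mice. The remaining neighbouring pairs kept their order in 8 of 8 mice.

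**Figure D1:**
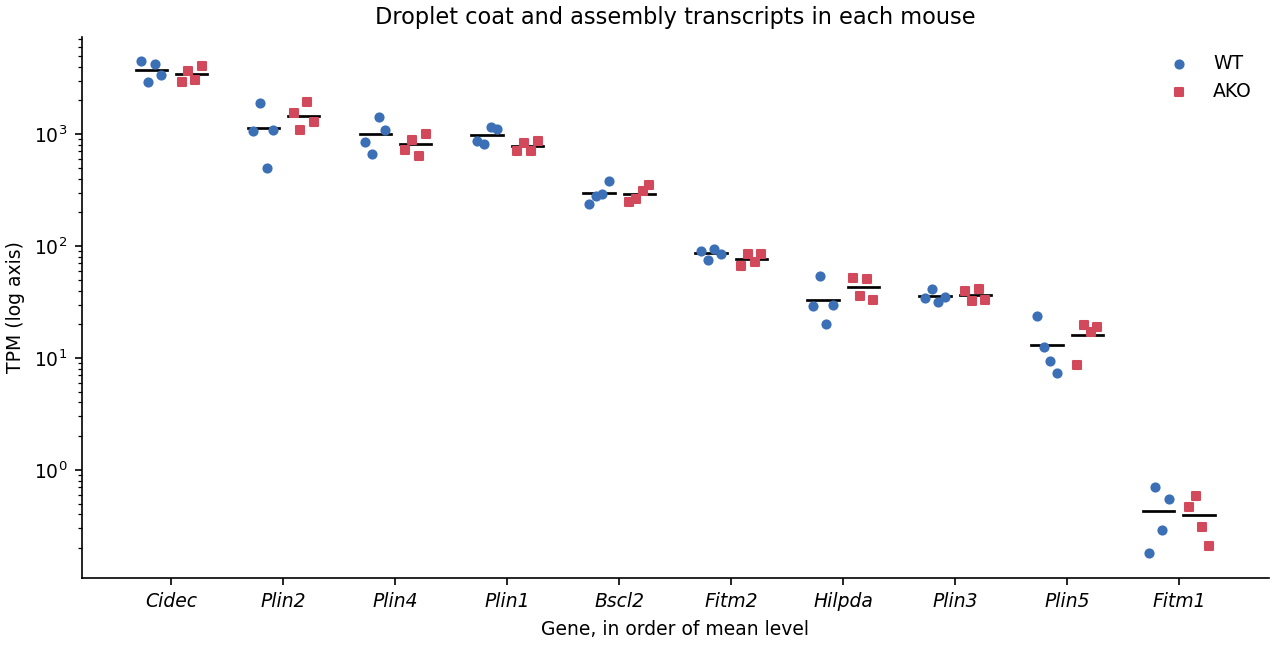
TPM of the 10 droplet coat and assembly genes on a log axis, one point per mouse (blue circles WT, red squares AKO, 4 mice each) and a black line at each group mean, with genes in order of mean level. The WT and AKO points overlap for every gene, from Cidec near 3583 TPM down to Fitm1 near 0.411 TPM, and the WT points of Plin2 spread from 498 to 1886 TPM.

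Plin1 (ENSMUSG00000030546, chromosome 7), the perilipin of the large fat cell droplet and the gatekeeper of stimulated lipolysis, was lower on average in AKO. Its level was 869, 811, 1160 and 1114 TPM in WT animals 2, 3, 4 and 5, and 707, 836, 703 and 874 TPM for AKO animals 3, 8, 9 and 11. WT mice 4 and 5 lay above every AKO mouse, while WT mice 2 and 3 lay among them, so the groups overlapped. The group means were 988.6 ± 173.9 TPM in WT and 779.9 ± 88.2 in AKO. On the log2(TPM + 1) scale, which is used for every difference given here as AKO minus WT, this was -0.33 ± 0.14 (SE). The unadjusted limma p was 0.0468, and after Benjamini-Hochberg adjustment over all 14172 genes (the limma FDR) it was 0.831.

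Plin4 (ENSMUSG00000002831, chromosome 17), which coats small, newly formed droplets in fat cells, followed nearly the same order of mice. WT animals 2, 3, 4 and 5 had 844, 667, 1413 and 1086 TPM, and AKO animals 3, 8, 9 and 11 had 713, 889.8, 638 and 994 TPM. WT mice 4 and 5 were highest and AKO mouse 9 and WT mouse 3 lowest, with the groups overlapping. The log2 difference was -0.27 ± 0.24 (SE; limma FDR = 0.849). The ratio of Plin4 to Plin1 stayed between 0.822 and 1.22 over the 8 mice, while Plin4 itself varied 2.21-fold. Plin4 overlaps Hdgfl2 on the other strand in the annotation, and no source used here says whether the counting used strand.

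Perilipin 4 is built around a long run of near-identical repeats, shown here because Plin4 has more table rows than any other member. In the longest GENCODE M21 transcript of Plin4 (5756 bases, coding from base 129 to base 4337), 2262 bases lay in stretches where a window of 99 bases matched the next 99 bases at 80% or more. In the longest transcripts of the other 9 genes this number was 0. At a shift of 297 bases, the best of the shifts from 30 to 300 bases, 49.9% of the Plin4 transcript's bases equalled those they were laid over. The 2 neighbouring units shown here, bases 1419 to 1517 and 1518 to 1616 in exon 5 of 9, differ at 0 bases. They are printed in lower case throughout because no base separates them. The part of the repeats in the row values was not tested.
Plin4 unit 1: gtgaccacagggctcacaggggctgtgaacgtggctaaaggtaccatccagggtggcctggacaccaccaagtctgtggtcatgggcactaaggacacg
Plin4 unit 2: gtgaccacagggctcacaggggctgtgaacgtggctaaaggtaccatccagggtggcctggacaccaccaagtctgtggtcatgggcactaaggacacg

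Cidec (ENSMUSG00000030278, chromosome 6), whose protein moves lipid from small droplets into larger ones and so favours a single large droplet, was the highest of the 10 genes in every mouse. It was at 4458, 2899, 4209 and 3395 TPM in WT animals 2, 3, 4 and 5, and at 2924, 3684, 3020.5 and 4075 TPM for AKO animals 3, 8, 9 and 11. WT mouse 2 was highest and WT mouse 3 lowest, so the WT range enclosed all 4 AKO mice. The WT mean was 3740.4 ± 721.6 TPM and the AKO mean 3426 ± 548.9, a log2 difference of -0.12 ± 0.18 (SE; limma FDR = 0.908). The ratio of Cidec to Plin1 ran from 3.05 to 5.13 in WT and from 4.14 to 4.66 in AKO.

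Plin2 (ENSMUSG00000028494, chromosome 4), the perilipin found in nearly all cells that store lipid, varied most among the abundant members, 3.85-fold over the 8 mice. Its level was 1064, 1886, 498 and 1084 TPM in WT animals 2, 3, 4 and 5, and 1539, 1091, 1916 and 1270.5 TPM for AKO animals 3, 8, 9 and 11. AKO mouse 9 and WT mouse 3 were highest and WT mouse 4 lowest, and all 4 AKO mice lay within or just above the WT range. The WT mean was 1133 ± 570.7 TPM and the AKO mean 1454 ± 358.6, a log2 difference of 0.48 ± 0.37 (SE; limma FDR = 0.831). Without WT mouse 4 the log2 difference was 0.13.

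Hilpda (ENSMUSG00000043421, chromosome 6) encodes a small droplet protein that inhibits the triglyceride lipase ATGL and is known as a gene induced by low oxygen and by fatty acids. It was at 29.1, 53.6, 19.9 and 29.7 TPM in WT animals 2, 3, 4 and 5, and at 51.7, 35.9, 50.8 and 32.9 TPM for AKO animals 3, 8, 9 and 11. WT mouse 3 was highest and WT mouse 4 lowest, and the 3 WT mice other than mouse 3 lay below all 4 AKO mice. The WT mean was 33.1 ± 14.4 TPM and the AKO mean 42.8 ± 9.82, a log2 difference of 0.42 ± 0.28 (SE; limma FDR = 0.831). Hilpda was between 0.0259 and 0.0400 of the Plin2 level in the 8 mice. The summed hypoxia markers were between 155 and 276 TPM in WT and between 174 and 232 in AKO, with 4 of 8 markers positive and 4 negative; their part in the Hilpda values was not tested.

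Plin2 and Hilpda varied together across the mice, so their promoters are printed for comparison with that of Plin1, whose order of mice was different. The windows are RefSeq's on GRCm38.p6, from 250 bases before the transcription start to 50 after it. They lie at chr4:86670010-86670309 (Plin2, minus strand), chr6:29272238-29272537 (the first of 2 overlapping Hilpda entries, plus strand) and chr7:79732727-79733026 (Plin1, minus strand). Capitals mark the hypoxia response cores ACGTG and GCGTG on either strand, which overlap each other in Plin2 where CACGTG reads as ACGTG in both directions. The second Hilpda window, not printed, held 1 ACGTG (at -43 from its start) and 2 GCGTG (at -111 and -8). The GCGTG at -111 is the one marked in the printed window.
Plin2: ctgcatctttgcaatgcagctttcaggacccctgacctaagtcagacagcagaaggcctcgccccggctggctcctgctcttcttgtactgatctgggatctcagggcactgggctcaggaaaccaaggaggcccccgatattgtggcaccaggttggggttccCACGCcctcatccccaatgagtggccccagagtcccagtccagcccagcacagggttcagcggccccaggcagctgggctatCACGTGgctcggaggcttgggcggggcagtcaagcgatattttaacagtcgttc
Hilpda: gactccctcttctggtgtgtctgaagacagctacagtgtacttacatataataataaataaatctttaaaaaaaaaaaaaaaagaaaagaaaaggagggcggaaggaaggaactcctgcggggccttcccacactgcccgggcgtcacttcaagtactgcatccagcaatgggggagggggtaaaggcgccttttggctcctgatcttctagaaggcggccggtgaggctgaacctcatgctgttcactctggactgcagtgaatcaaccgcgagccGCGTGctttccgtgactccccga
Plin1: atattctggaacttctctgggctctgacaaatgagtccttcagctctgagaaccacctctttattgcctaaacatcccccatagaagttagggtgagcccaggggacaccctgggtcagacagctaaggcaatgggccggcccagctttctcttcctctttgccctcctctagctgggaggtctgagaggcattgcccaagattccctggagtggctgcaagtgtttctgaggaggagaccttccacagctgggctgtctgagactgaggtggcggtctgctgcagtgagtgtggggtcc

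All 10 genes had an entry, 15 in all, and 9 of the 15 windows, from 6 genes, held at least 1 of these cores. The genes were Plin2 and Hilpda, Cidec of the adipocyte type (in both its windows), and Bscl2, Fitm2 and Plin5. The macrophage type was therefore not set apart from the other members by holding a core. Of the 32851 promoter windows listed, 43.8% held one (19.6% for ACGTG and 32.4% for GCGTG). No test was made of this difference, and windows of 1 gene can overlap. A PPAR-type element, 2 copies of AGGNCA with 1 base between them on either strand, was in 0 of the members' windows and in 0.381% of all promoters. These matches describe letters in a window only.

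Plin3 (ENSMUSG00000024197, chromosome 17), a perilipin that moves between the cytosol and new droplets in most cells, was the steadiest member. It ranged only from 31.6 to 41.7 TPM over the 8 mice, with means of 35.7 ± 4.26 in WT and 36.4 ± 4.39 in AKO (log2 difference 0.03, limma FDR = 0.962). Its highest mice, WT 3, AKO 9 and AKO 3, were also the 3 highest for Plin2. Plin5 (ENSMUSG00000011305, chromosome 17), the perilipin of muscle, heart and other oxidative tissue, was at 23.5, 12.5, 9.34 and 7.39 TPM in WT animals 2, 3, 4 and 5, and at 8.69, 19.9, 16.9 and 19.05 TPM for AKO animals 3, 8, 9 and 11. WT mouse 2 was highest and WT mouse 5 lowest, and AKO mouse 3 lay apart from the other AKO mice on the low side. The log2 difference was 0.34 ± 0.36 (SE; limma FDR = 0.872). Summed skeletal muscle markers were 21.9 to 61.0 TPM in WT and 45.6 to 79.7 in AKO. Most of that sum came from Acta1 (10.99 to 65.0 TPM) and Pvalb (2.97 to 26.4 TPM). Ckm and Myh4, which mark muscle fibres, were at most 0.07 and 0.03 TPM, and 5 of the 8 markers were too low to test. WT mouse 2 and AKO mouse 8 were highest in their group for the sum and for Plin5; its part in the Plin5 values was not tested. In the annotation Plin4 and Plin5 are neighbours on chromosome 17 with 0 genes between them, and Plin3 lies 11 genes from Plin5, yet their orders of mice differed.

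Among the assembly factors, Bscl2 (ENSMUSG00000071657, chromosome 19) encodes seipin, the ring-shaped protein at the site where droplets leave the endoplasmic reticulum. Its level was 239, 282, 291 and 383 TPM in WT animals 2, 3, 4 and 5, and 246, 264, 307 and 348 TPM for AKO animals 3, 8, 9 and 11. The groups overlapped throughout, with means of 298.6 ± 60.5 and 291.3 ± 45.7 TPM (log2 difference -0.03, limma FDR = 0.975). Bscl2 overlaps Gng3 on the other strand and AC129217.1 on its own strand, and no source used here says how reads were divided between them.

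Fitm2 (ENSMUSG00000048486, chromosome 2) encodes the FIT protein found in most tissues, needed for droplets to bud from the endoplasmic reticulum. It was at 90.4, 74.9, 93.6 and 84.8 TPM in WT animals 2, 3, 4 and 5, and at 66.7, 85.1, 71.6 and 85.6 TPM for AKO animals 3, 8, 9 and 11. WT mice 4 and 2 were highest and AKO mouse 3 lowest, with overlap between the groups (log2 difference -0.15 ± 0.11, SE; limma FDR = 0.831). It overlaps 2310001K24Rik on the other strand. Fitm1 (ENSMUSG00000022215, chromosome 14), the FIT protein known from muscle, ranged from 0.18 to 0.70 TPM, under the 1 TPM asked for in at least 4 mice, and was not tested.

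Of the 10 genes, 9 were tested between AKO and WT, and 0 passed an FDR of 0.05 (limma, Benjamini-Hochberg). Over all genes the fit called 4 of 14172 (0.0282%), 3 of them higher and 1 lower in AKO. At an unadjusted p under 0.05 the count was 1 of 9, Plin1, where 4.75% of all genes had such a p. The groups overlapped for each of the 9 tested members, while 2.44% of all genes had groups that did not overlap (1.33% with AKO lower and 1.11% with AKO higher). Of the 9 log2 differences 4 were positive (Plin2, Hilpda, Plin5 and Plin3) and 5 negative (Plin1, Plin4, Fitm2, Cidec and Bscl2), with a median of -0.03. Over all genes the median was 0.02, with 53.8% positive and 46.2% negative. No droplet coat or assembly gene therefore passed the test between the genotypes. This does not show that levels were equal, since the SE of the log2 difference was 0.37 for Plin2, 0.36 for Plin5 and 0.28 for Hilpda.

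**Figure D2:**
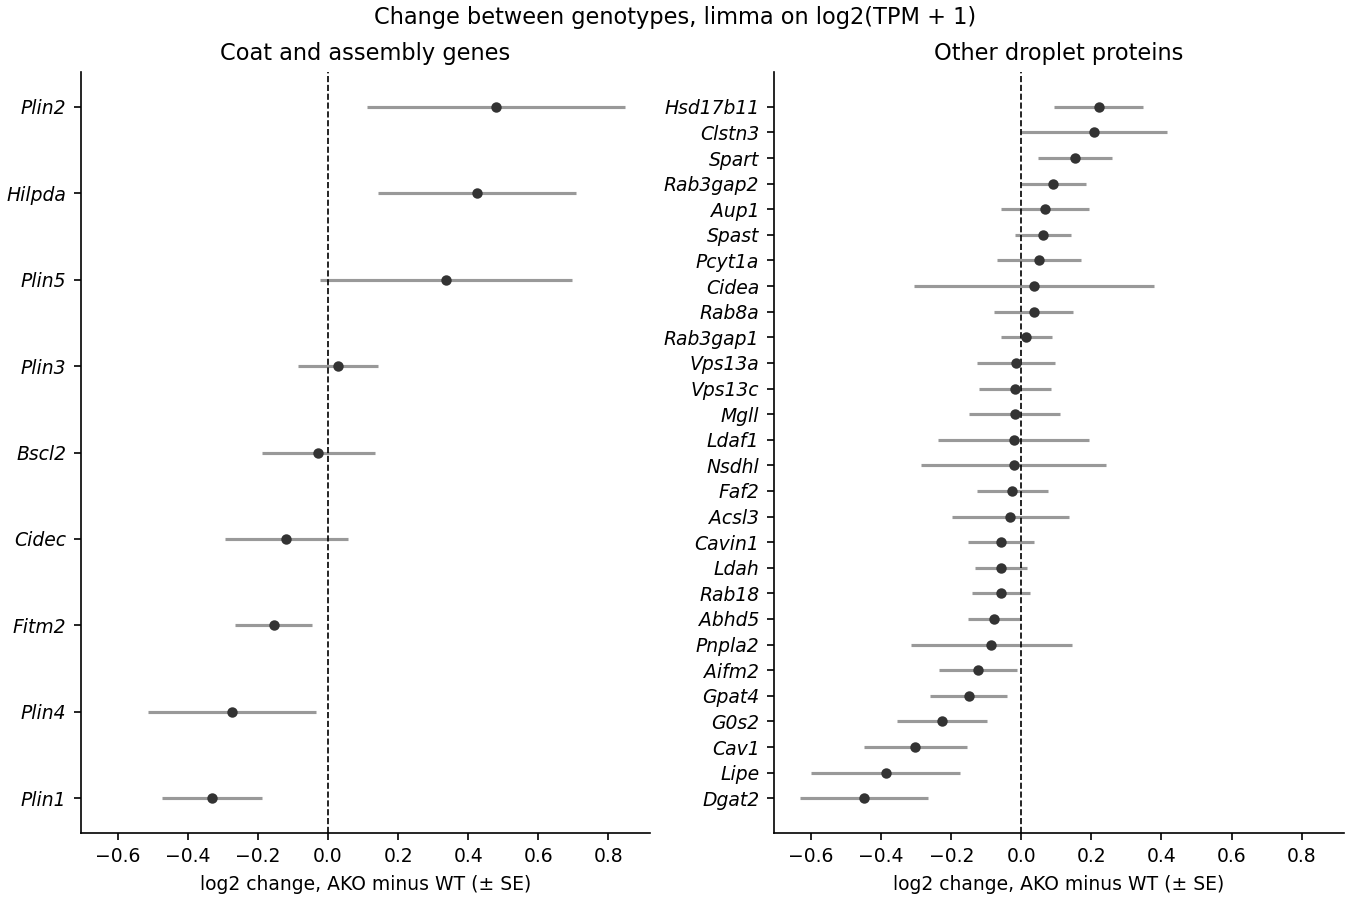
Log2 difference (AKO minus WT, limma on log2(TPM + 1)) of the 9 tested coat and assembly genes (left) and of 28 other droplet proteins (right), with bars of 1 SE and a dashed line at 0. On the left the points run from -0.33 (Plin1) to 0.48 (Plin2), the latter with an SE of 0.37, and on the right from -0.45 (Dgat2) to 0.22 (Hsd17b11).

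The perilipin mix, the share of each perilipin in their summed TPM, differed widely between mice although the sum did not. The 5 perilipins summed to between 2834 and 3418 TPM, a 1.21-fold range, with 3172.5 ± 259.6 TPM in WT and 3095 ± 196.7 in AKO. Plin2 held 37.5%, 55.2%, 16.0% and 32.6% of that sum in WT animals 2, 3, 4 and 5, and 51.2%, 38.02%, 57.8% and 39.8% for AKO animals 3, 8, 9 and 11. WT mouse 4 had the smallest Plin2 share and AKO mouse 9 the largest, with WT mouse 3 next to it.

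Plin1 held 30.7%, 23.7%, 37.3% and 33.5% in WT animals 2, 3, 4 and 5, and 23.5%, 29.1%, 21.2% and 27.4% for AKO animals 3, 8, 9 and 11. Plin4 held 29.8%, 19.5%, 45.4% and 32.6% in the same WT mice, and 23.7%, 31.02%, 19.2% and 31.2% in the same AKO mice. Both shares were largest in WT mouse 4 and smallest in AKO mouse 9, the reverse of Plin2. The 3 shares make up nearly all of a sum fixed at 100%, so they cannot all move the same way. In TPM, too, Plin1 and Plin4 were highest in WT mouse 4 and lowest in AKO mouse 9. Plin3 stayed between 1.02% and 1.31%, and Plin5 between 0.222% and 0.830%. On average Plin2 held 35.3% ± 16.1 in WT and 46.7% ± 9.42 in AKO, Plin1 31.3% ± 5.72 and 25.3% ± 3.61, and Plin4 31.8% ± 10.7 and 26.3% ± 5.84. All these ranges overlapped between the groups.

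**Figure D3:**
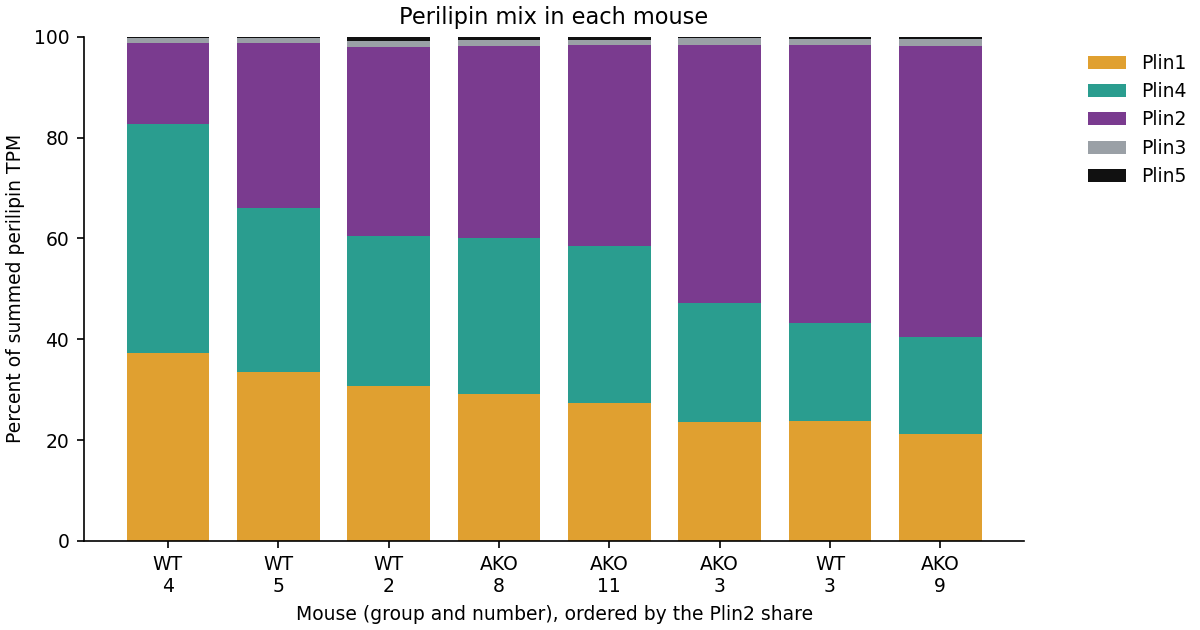
Share of each perilipin in the summed perilipin TPM (percent, stacked bars from 0 to 100) in each of the 8 mice, ordered by the Plin2 share. Plin2 runs from 16.0% in WT mouse 4 to 57.8% in AKO mouse 9, and WT mouse 3 stands among the AKO mice with 55.2%.

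The log2 ratio of Plin2 to Plin1 puts the mix into 1 value per mouse. It was 0.29, 1.22, -1.22 and -0.04 in WT animals 2, 3, 4 and 5, and 1.12, 0.38, 1.45 and 0.54 for AKO animals 3, 8, 9 and 11. All 4 AKO mice were above 0, WT mice 2, 4 and 5 lay below every AKO mouse, and WT mouse 3 lay above 3 of the 4. The mean was 0.06 ± 1.01 in WT and 0.87 ± 0.50 in AKO, a difference of 0.81 that did not pass a two-sided exact permutation test over 70 arrangements (p = 0.2, where the smallest possible p is 0.0286). Leaving out WT mouse 3 gave a difference of 1.195 and an exact permutation p of 0.0286, the smallest that design allows. With any other single mouse left out that p was between 0.171 and 0.429. Leaving out WT mouse 3 also moved the whole series: genes with an unadjusted limma p under 0.05 went from 673 to 1938 of 14172. Without WT mouse 4 the difference was 0.38 (exact permutation p = 0.429).

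Summed over the adipocyte type, Plin1, Plin4 and Cidec had 6171, 4377, 6782 and 5595 TPM in WT animals 2, 3, 4 and 5, and 4345, 5409.7, 4361 and 5943.5 TPM for AKO animals 3, 8, 9 and 11. The macrophage type genes Plin2 and Hilpda had 1093, 1939, 518 and 1114 TPM in the WT mice, and 1591, 1127, 1966 and 1303 TPM in the AKO mice, in the same order. WT mouse 4 was highest for the first sum and lowest for the second, and WT mouse 3, AKO mouse 3 and AKO mouse 9 had the 3 lowest values of the first and the 3 highest of the second. The ratio of the first sum to the second was 5.65, 2.26, 13.1 and 5.02 in WT and 2.73, 4.80, 2.22 and 4.56 in AKO, a 5.91-fold range. WT mice 2, 4 and 5 had ratios above every AKO mouse, and WT mouse 3 was below 3 of the 4. Each sum was mostly 1 gene: Cidec was the largest part of the first in every mouse. Plin2 made up nearly all of the second, with Hilpda at 0.0259 to 0.0400 of its level. No test was made of these sums.

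Marker genes of the corresponding cells are given beside this mix. They were not tested against the shares or the sums, and relations of single droplet genes with marker scores follow below. Summed adipocyte markers were 4742 to 13598 TPM in WT and 4983 to 9114 in AKO, with 8 of 10 log2 differences negative (median -0.28). Summed general macrophage markers were 2271 to 5353 TPM in WT and 3676 to 6477 in AKO, with 10 of 10 positive (median 0.45). Markers of lipid-associated macrophages, the lipid-laden cells of obese fat, summed to 1438 to 7490 TPM in WT and 4627 to 8795 in AKO, with 10 of 10 positive (median 1.17). Red blood cell markers summed to 1520 to 5870 TPM in WT and 1275 to 4380 in AKO, with 3 of 3 negative (median -0.48). They were highest in WT mouse 4 and lowest in AKO mouse 9 and WT mouse 3. Not every adipocyte marker had this order: Gpd1 was at 617 TPM in WT mouse 4 and highest, at 864 TPM, in AKO mouse 9. Of these 4 lists 0 markers passed the limma FDR of 0.05, where 0.0282% of all genes did. An unadjusted limma p under 0.05 was found for 3 of the 10 lipid-associated macrophage markers (Spp1, Itgax and Ctsk) and for 0 in the other 3 lists, where 4.75% of all genes had one. No list had a marker at 0 in all mice. Their part in the genotype differences of the droplet genes was not tested.

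Across the 8 mice, 6 relations between a droplet gene and a marker score (the mean log2(TPM + 1) of a list in a mouse) were computed, with exact permutation p over 40320 pairings and Benjamini-Hochberg adjustment over the 6. All values of a mouse share 1 library and 1 TPM total, so a gene and a score are not independent measurements. The adipocyte and lipid-associated macrophage scores also ran largely opposite to each other. WT mouse 3, AKO mouse 3 and AKO mouse 9 had the highest lipid-associated macrophage scores and the lowest adipocyte scores. WT mouse 4 had the reverse. Each gene was set against 1 of these scores only. The 6 relations are therefore not separate results and do not single out a cell type. The 4 mice of a genotype are too few for a relation of their own, and the labels give no batch to split by.

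The lipid-associated macrophage score was 7.88, 8.85, 6.13 and 7.55 in WT animals 2, 3, 4 and 5, and 8.83, 8.45, 9.15 and 8.18 for AKO animals 3, 8, 9 and 11. Plin2 followed it with a Pearson r of 0.96 (exact permutation p = 0.000719, adjusted 0.00216) and a Spearman rho of 0.95 (p = 0.00114, adjusted 0.00685). Without the 2 mice farthest from the median score, WT 4 and AKO 9, r was 0.81 (exact permutation p = 0.0556, adjusted 0.0833), which no longer passed. Hilpda followed it with r = 0.95 (exact permutation p = 0.000273, adjusted 0.00164) and rho = 0.90 (p = 0.00456, adjusted 0.0137), and r was 0.93 without the same 2 mice (exact permutation p = 0.00972, adjusted 0.0542). For Plin3, r was 0.73 (exact permutation p = 0.0270, adjusted 0.0270) and rho 0.74 (p = 0.0458, adjusted 0.0458). Without those 2 mice r was 0.61 (exact permutation p = 0.210), and leaving out WT mouse 3, WT mouse 4, AKO mouse 3 or AKO mouse 9 alone also gave Plin3 an exact permutation p above 0.05 (r from 0.66 to 0.71, against 0.73 with all mice).

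With the general macrophage markers in place of the lipid-associated ones, r was 0.97 for Plin2, 0.98 for Hilpda and 0.85 for Plin3 (exact permutation, adjusted p = 0.00186, 0.00186 and 0.00692). These values are as high as with the lipid-associated score, so the relations do not single out either macrophage list.

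The adipocyte score was 8.83, 8.01, 9.28 and 8.84 in WT animals 2, 3, 4 and 5, and 8.18, 8.82, 8.07 and 8.72 for AKO animals 3, 8, 9 and 11. Plin4 had r = 0.94 with it (exact permutation p = 0.00149, adjusted 0.00298) and rho = 0.88 (p = 0.00724, adjusted 0.0145). Plin1 had r = 0.83 (exact permutation p = 0.00920, adjusted 0.0138) and rho = 0.86 (p = 0.0107, adjusted 0.0161). Cidec had r = 0.85 (exact permutation p = 0.0150, adjusted 0.0180) and rho = 0.76 (p = 0.0368, adjusted 0.0441). Without the 2 mice farthest from the median, WT 3 and AKO 9, r was 0.89 for Plin4 (exact permutation p = 0.0486, adjusted 0.0833), 0.86 for Plin1 (p = 0.0181, adjusted 0.0542) and 0.74 for Cidec (p = 0.107, adjusted 0.128). Without WT mouse 4 the adjusted exact permutation p was 0.0548 for Plin1 (r = 0.73) and for Cidec (r = 0.84), above the 0.05 threshold. By rho, the adjusted exact permutation p without that mouse was 0.0683 for Plin4, 0.0720 for Plin1 and 0.106 for Cidec.

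**Figure D4:**
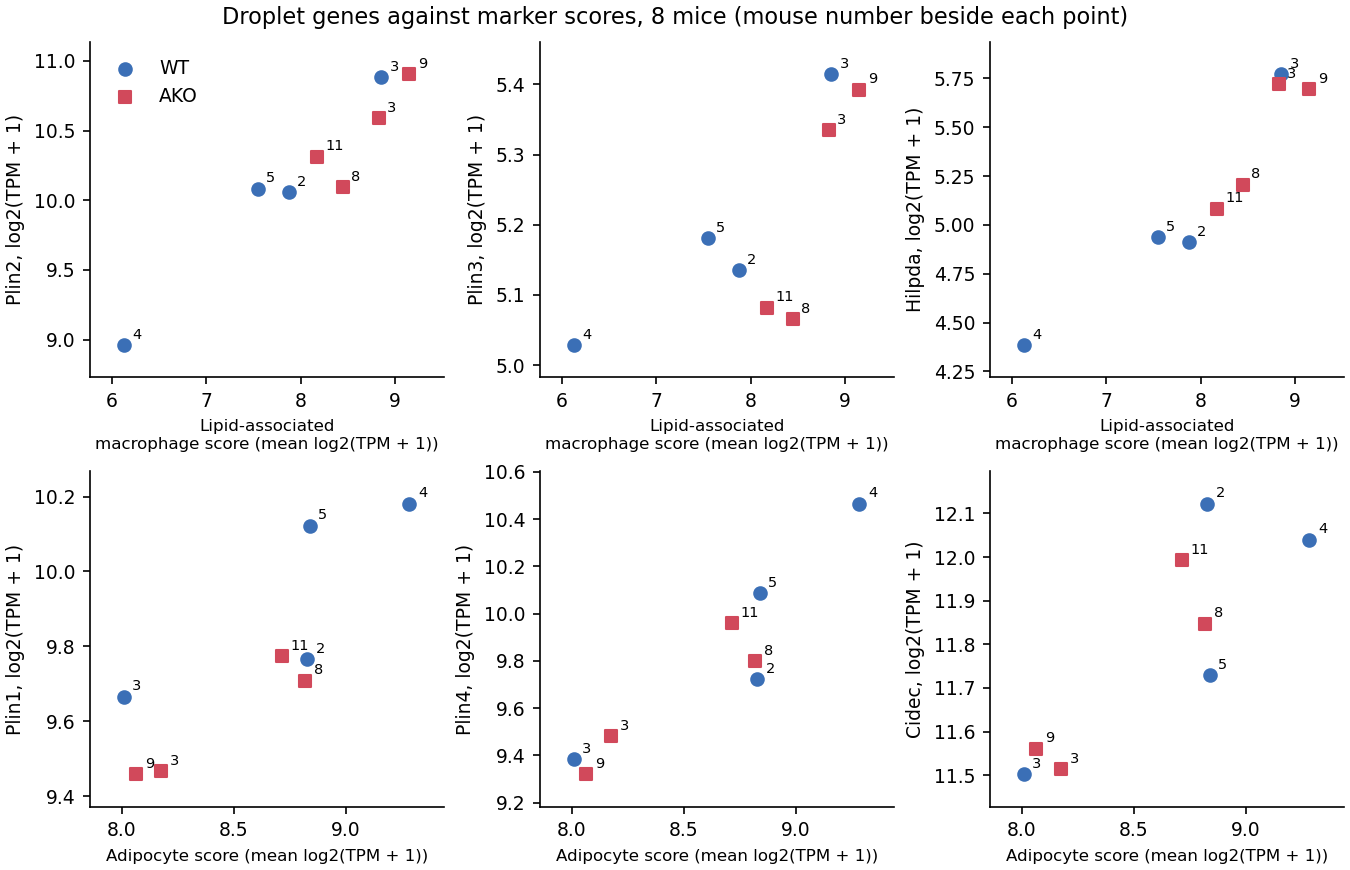
Level of Plin2, Plin3 and Hilpda (top, log2(TPM + 1)) against the lipid-associated macrophage score, and of Plin1, Plin4 and Cidec (bottom) against the adipocyte score, one point per mouse with its number (blue circles WT, red squares AKO, 8 mice). Plin2 and Hilpda are lowest in WT mouse 4, at a score of 6.13, and high in AKO mouse 9, at 9.15, and WT mouse 3 lies beside AKO mice 3 and 9 in the top panels.

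The other droplet proteins, 30 genes of surface enzymes, lipases and their regulators, fusion and tethering factors and caveola proteins, were read in the same way. Of the 30, 28 were tested and 0 passed the limma FDR of 0.05, against 0.0282% of all genes. At an unadjusted p under 0.05 there was 1 of the 28, against 4.75% of all genes. Of their log2 differences 10 were positive and 18 negative, with a median of -0.02. The 2 that were not tested, Cideb and Hsd17b13, stayed under 1 TPM.

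Dgat2, which makes triglyceride at the droplet surface, had the smallest p of the list. It was at 1605.5, 1906, 2231 and 2659 TPM in WT animals 2, 3, 4 and 5, and at 1497, 1306, 1380.5 and 1937 TPM for AKO animals 3, 8, 9 and 11, with AKO mouse 11 above WT mice 2 and 3. The log2 difference was -0.45 ± 0.18 (SE). The unadjusted limma p was 0.0380, and the limma FDR 0.831. Next came the caveola protein gene Cav1 (-0.30), Lipe, the hormone-sensitive lipase held back by perilipin 1 in resting fat cells (-0.39), and G0s2, an inhibitor of ATGL (-0.23), each with a limma FDR of 0.831 and overlapping groups. Lipe is also 1 of the 10 adipocyte markers.

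The tables hold 74 rows for the 10 genes, without transcript names, numbered here in their order under each identifier. Plin4 had 19 rows and Plin1 11, where GENCODE M21 lists 2 and 7 transcripts. For Plin2, Plin3, Bscl2 and Hilpda a single row held most of the gene's TPM (81.6%, 95.4%, 92.4% and 95.8%), whereas for Plin4 the largest row held 23.6% and for Plin1 55.1%. All 19 Plin4 rows were tested and all 19 log2 differences were negative, from -0.70 to -0.09, and 8 of the 9 tested Plin2 rows were positive. Rows of a gene divide the same reads and are not independent of each other.

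Tested singly, 60 of the 74 rows gave 0 calls at a limma FDR of 0.05 over 33323 rows, where 7 of all rows (0.021%) were called. At an unadjusted p under 0.05 there were 5 of 60, where 5.56% of all rows had such a p. In 2 of the 60 rows the groups did not overlap, both with AKO lower, where 1.45% of all rows were of that kind, 1.59% had AKO higher without overlap, and 3.05% did not overlap in either direction.

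The row with the smallest p was Plin1 row 5, at 46.5, 40.8, 48.3 and 44.3 TPM in WT animals 2, 3, 4 and 5, and at 20.6, 27.1, 29.4 and 29.6 TPM for AKO animals 3, 8, 9 and 11. Every WT mouse lay above every AKO mouse, WT mouse 3 included, with a log2 difference of -0.74 ± 0.13 (SE). The unadjusted limma p was 0.000276, and the limma FDR over rows 0.328. As a share of Plin1 it was 5.35%, 5.03%, 4.16% and 3.98% in the WT mice, and 2.91%, 3.24%, 4.19% and 3.39% in the AKO mice. The shares overlapped through AKO mouse 9, whose share exceeded those of WT mice 4 and 5. Plin1 row 4 was at 53.4, 93.0, 94.3 and 114.9 TPM in WT and at 48.4, 43.9, 46.3 and 57.1 TPM in AKO, overlapping only between WT mouse 2 and AKO mouse 11 (log2 difference -0.80 ± 0.22, SE; limma FDR over rows = 0.796). The main Plin1 row 6 held 52.7% to 58.0% of the gene in every mouse.

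Plin4 row 6, a minor row, was the other one without overlap. It was at 5.51, 5.88, 7.11 and 7.27 TPM in WT and at 3.21, 5.34, 1.75 and 4.88 TPM in AKO (log2 difference -0.70 ± 0.26, SE; limma FDR over rows = 0.838), and held 0.565% of the gene. The other 2 rows with an unadjusted limma p under 0.05 were Plin1 row 10 (log2 difference -0.31) and Plin2 row 12 (0.51), both with overlapping groups.

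**Figure D5:**
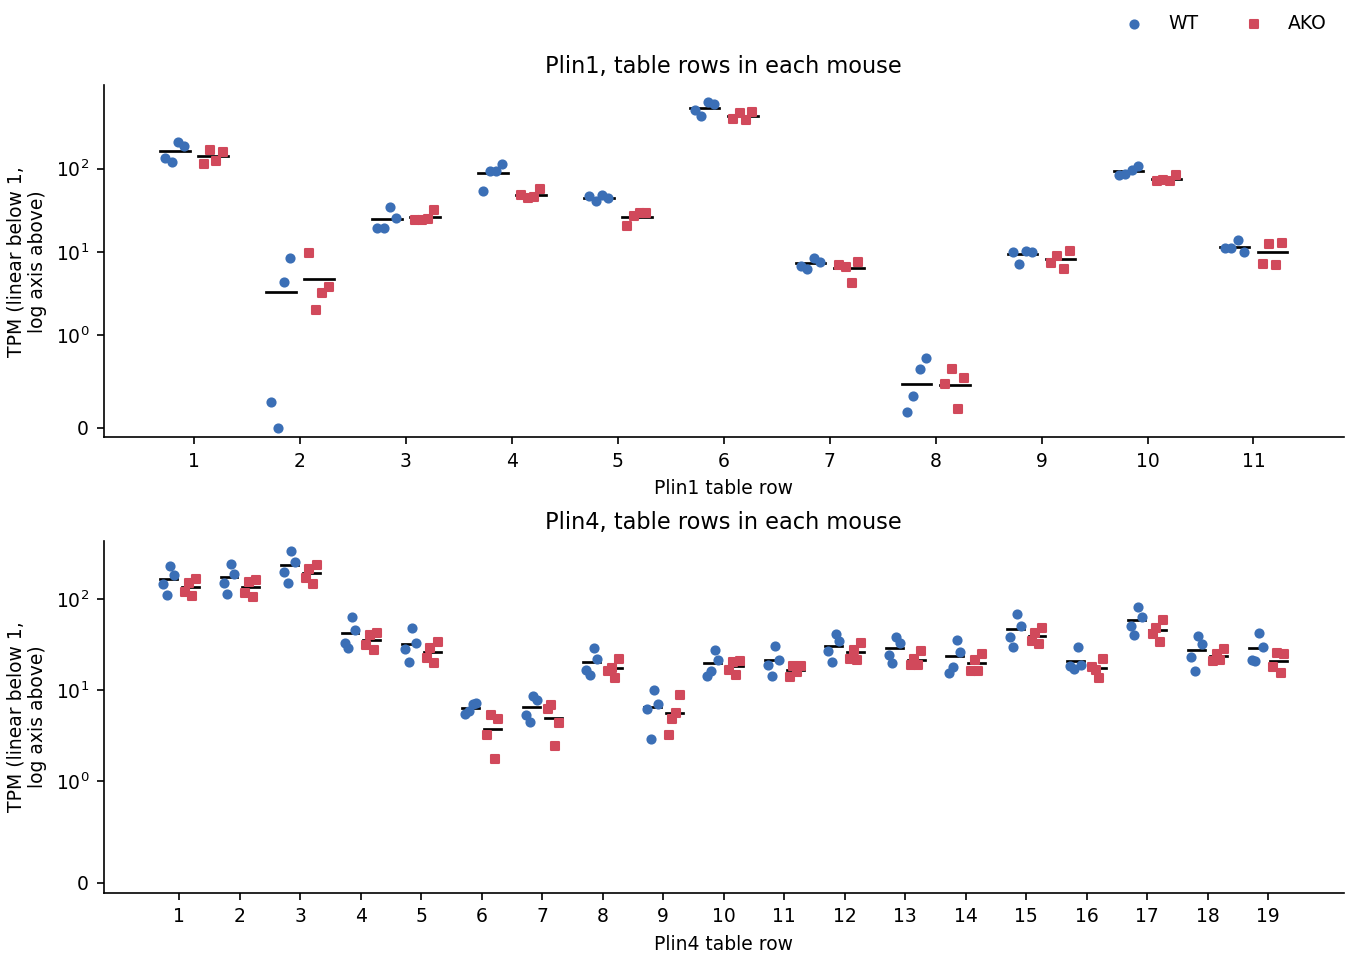
TPM of each table row of Plin1 (top, 11 rows) and Plin4 (bottom, 19 rows) in each mouse (blue circles WT, red squares AKO, black lines at group means), on an axis that is linear below 1 TPM and logarithmic above. Plin1 row 5 and Plin4 row 6 are the rows where the WT and AKO points do not overlap, and row 6 of Plin1, between 385 and 637 TPM, carries most of that gene.

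The genes whose levels were most like those of a member across the 8 mice were listed by Pearson r of log2(TPM + 1) among 9295 genes, as a description without a p. Every value of a mouse comes from 1 library. For Plin2 they were Parp1, Nus1, Aprt, Mical2 and C5ar1 (r = 0.99 for each), whose ranges over the mice ran from 1.39-fold (Parp1) to 6.91-fold (C5ar1). For Hilpda they were Card19 (r = 0.998), Wdr1, Cyth4, Atp8b4 and Dock2 (0.99 for each). For Plin1 they were Chchd6, Isoc1, Inpp5a, Immp1l and Cav1 (0.98 for each), the last a member of the other droplet proteins. For Cidec they were Il17rc (0.99), which lies on the same chromosome with 3 genes between, Nexn, Cisd1, Ech1 (0.98 for each) and Gne (0.97).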

How the data were processed

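RNA of epididymal fat from 8 mice was measured by sequencing. For every library the authors deposited a table of TPM with 152298 rows. Per the submitters' processing notes HISAT2, DESeq2 and the build mm9 were used, with no role or version; no source used here names the quantifier or annotation. Deposited TPM sum to 1000000 within rounding, in steps of 0.01, so the depth of each sample is unknown and counting intervals cannot be given. In each library 13968 to 14884 genes reached 1 TPM. Rows that named no gene (401, with 0.605% to 0.943% of TPM) stayed out of the tests. Symbols were matched for 55141 of 55487 identifiers. No 2 libraries were identical.

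Rows were summed per gene. Genes reaching 1 TPM in 4 or more mice were fitted with limma 3.58.1 (R 4.3.3, mean-variance trend) on log2(TPM + 1), a scale that understates changes of low genes, with Benjamini-Hochberg adjustment and an FDR threshold of 0.05; rows were fitted likewise. The fit was tested on simulated data. Exact permutation tests (two-sided) went through every arrangement or pairing with Python 3.11.15 and numpy 2.4.6. Ranks and the adjustment over the relations used scipy 1.17.1. P-values of the genotype comparisons measure the spread between these animals, which the labels number and which are taken as separate mice. Those of the relations come from re-pairing a gene with a score over all mice, without regard to genotype. GENCODE M21 is on another build than mm9 and gave chromosome names, gene order, overlaps and the Plin4 transcript only; promoters are RefSeq's, matched by symbol.

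Named were all 10 members, Slc16a1, the 4 genes of the other droplet proteins with the smallest p, and for Plin1, Plin2, Cidec and Hilpda the 5 genes with the highest r among tested genes with a mean of at least 3 on the log2 scale, leaving out unnamed loci and Gm or Rik symbols. Rows, single markers and Hsd17b11 were named after their values were seen. The members and all lists were chosen with earlier results of these data known. Alternatives were another pseudocount (0.1), no filter, the highest row, median-ratio scaling, no mitochondrial genes, robust variance, general macrophage markers in the relations, leaving out the 2 mice farthest from the median score, and leaving out each mouse; for the relations and perilipin shares, leaving out each mouse, and for the shares the highest row, were added after seeing the data.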

Additional observations from a re-analysis of the deposited data

Results flagged for a closer look

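The ratio of Hilpda to Plin2 in WT mouse 4 was 0.0400, against 0.0274 to 0.0284 in the other WT mice. Its gap to the nearest mouse was 0.914 of the group's range; Dixon's critical value for 4 samples lies below it. Both genes were at their lowest level of the 8 mice in that animal. The summed epididymis markers in AKO mouse 11 were 0.55 TPM, against 0 to 0.08 TPM in the other AKO mice, with a gap of 0.855 of the range; in WT mice they ranged from 0.05 to 7.57 TPM. Of the 80 groups of 4 values examined, 2 were past the critical value, and chance alone flags about 1 in 20 groups.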

How the results depend on the processing

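No droplet coat or assembly gene and none of the other droplet proteins passed the limma FDR of 0.05 under any alternative run, including each mouse left out. At an unadjusted limma p under 0.05 there were 0 to 3 of the tested members, 3 without WT mouse 3. Over all genes that count rose as well without WT mouse 3, to 1938 of 14172 from 673 with all mice. It was between 355 and 961 with any other mouse left out, so the 3 members are not a result particular to droplet genes. The count was 0, with Plin1 lost, without filter, with the highest row, with median-ratio scaling, and on leaving out WT 4, WT 5, AKO 3, AKO 8 or AKO 9. The count of all genes called was 4, between 3 and 6 under the other settings and between 1 and 5 with a mouse left out. Rows called were 7, 2 with a pseudocount of 0.1 and between 0 and 2 with a mouse left out; the cause was not tested.

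The sign of the log2 difference turned only for Plin3 and Bscl2. Plin3 was at -0.025, -0.0098 and -0.029 without WT mouse 4, AKO mouse 3 and AKO mouse 9, and Bscl2 at 0.10, 0.05 and 0.01 without WT mouse 5, AKO mouse 3 and AKO mouse 8. With a mouse left out, Plin1 ran from -0.42 to -0.25, Plin2 from 0.13 to 0.77, Plin3 from -0.029 to 0.10, Plin4 from -0.45 to -0.09, Plin5 from 0.13 to 0.64, Cidec from -0.23 to -0.03, Fitm2 from -0.22 to -0.09, Bscl2 from -0.13 to 0.10 and Hilpda from 0.22 to 0.68. The difference in the log2 ratio of Plin2 to Plin1 ran from 0.38 to 1.195, the latter (exact permutation p = 0.0286) without WT mouse 3. The difference in share ran from 4.94 to 18.0 percentage points for Plin2, from -8.50 to -3.99 for Plin1 and from -9.65 to -1.02 for Plin4.

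Without the 2 mice farthest from the median score none of the 6 relations kept an adjusted p under 0.05 (r = 0.81 for Plin2, 0.61 for Plin3, 0.93 for Hilpda, 0.86 for Plin1, 0.89 for Plin4 and 0.74 for Cidec), with 6 mice left. With each mouse left out, r ran from 0.87 to 0.99 for Plin2, 0.66 to 0.85 for Plin3, 0.93 to 0.96 for Hilpda, 0.73 to 0.89 for Plin1, 0.90 to 0.97 for Plin4 and 0.81 to 0.90 for Cidec. By rho without WT mouse 4, the adjusted exact permutation p was 0.0405 for Plin2, 0.0683 for Hilpda and 0.167 for Plin3. For Plin1, Plin4 and Cidec it was above 0.05 too. With the highest row it was 0.055 for Plin3 and 0.0962 for Cidec. No paired analysis was possible because the groups share only mouse number 3, on different animals. TPM keeps no depth, so a limit set by depth cannot be given.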
